A study of Homo sapiens with 12 samples.

Results

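HCC70 cells in which LAD1 was knocked down were compared with scramble control cells, both taken after 40 min of epidermal growth factor (EGF). The comparison rests on 4 of the 12 RNA libraries of the study, 2 from each kind of cell, chosen by their labels and not by any measured value. It was made over 13950 tested genes of the 26365 in the deposited table. HCC70 is a human triple-negative breast cancer line of the basal-like class. Every library of the study came from HCC70 cells with a stable shRNA, either shLAD1 against LAD1 or a scrambled sequence, that were starved of serum overnight. The 6 groups of 2 libraries are scramble and shLAD1 cells without EGF (0 min), and scramble and shLAD1 cells given 50 ng/ml of EGF for 40 or for 240 min. Both groups of the comparison therefore share the starvation, the stable shRNA vector and the same EGF dose and time.

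LAD1 encodes ladinin-1, a protein of epithelial cells that was described at the basement membrane of skin and that also binds the actin cytoskeleton. EGF acts through the receptor EGFR and the ERK kinases. Within the first hour it induces immediate early genes, many of which encode transcription factors such as FOS and EGR1, and then feedback inhibitors such as the DUSP phosphatases, which remove phosphate from the kinases. The comparison asks which genes differed between the cells with and without the knockdown at this early time.

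A single shRNA against LAD1 is named in the labels, so loss of LAD1 and any other effect of that shRNA cannot be told apart. The labels do not say whether the cells were clones or pools, or whether libraries 1 and 2 of a group came from separate cultures. The spread behind every p-value is thus that between these libraries, and it may be technical.

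LAD1 itself was low in both knockdown libraries. Its normalized count, the reads divided by a size factor per library, was 5808 and 6522 in the scramble libraries and 1181 and 971 in the shLAD1 libraries. The groups were far apart, and 17.5% of the scramble level remained. The log2 difference (shLAD1 minus scramble, here and throughout) was -2.52 ± 0.13 (standard error), with an adjusted p of 0.000195 in limma over all tested genes. LAD1 has an exon overlap with TNNT2, and the sources used here do not state whether the counting used strand.

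The cells held transcripts of both basal and luminal markers, and not every basal marker was present. KRT5, a keratin of basal epithelium, stood at 46391 to 78195 normalized counts in the 4 libraries. The basal marker TP63 stood at only 16.7 to 26.1, and SOX10 had no read in the 4. Among luminal markers, the keratins KRT19 (31940 to 41735) and KRT8 (8970 to 16477) were high. The estrogen receptor gene ESR1 stood at 19.8 to 27.0, and the progesterone receptor gene PGR had no read in any of the 4. Of 21 tested basal epithelial markers, 1 fell and none rose, with a median log2 difference of 0.02. The one that fell was MME, the membrane endopeptidase CD10, at 47.6 and 64.3 in scramble and 1.93 and 7.33 in shLAD1 cells (adjusted p = 0.0153). Of 23 tested luminal markers, 1 fell and none rose, with a median of 0.14. It was PROM1, which encodes the membrane glycoprotein prominin-1 (CD133), at 2845 and 3453 against 1645 and 1554 (log2 difference -0.97 ± 0.11, adjusted p = 0.00751).

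Depth was similar across the study at 12428618 to 16721013 reads per library, but it differed between the groups compared here. The scramble libraries at 40 min held 16721013 and 16011936 reads and the shLAD1 libraries 13688119 and 12915812. The part of this gap in the differences was not tested, beyond normalization. With every library scaled by its total count alone, 219 genes were called, close to the number given next.

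After 40 min of EGF, 113 genes (0.81%) were higher and 117 (0.839%) lower in shLAD1 cells at an adjusted p under 0.05 (limma over all tested genes, Benjamini-Hochberg). These 230 called genes are 1.65% of those tested. Rises and falls were nearly balanced, with 49.1% of the calls higher and a median log2 difference over all tested genes of 0.002. The differences were large among called genes, with a median absolute log2 of 0.86. Of the rises 41 exceeded 2-fold, as did 57 of the falls. The 2 shLAD1 values lay outside the range of the scramble values in all 230 called genes, against 46.7% of all tested genes.

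The count of calls depended on how the spread was estimated. The fit pools the spread over all 12 libraries. With only the 4 libraries at 40 min it called LAD1 alone (adjusted p = 0.0384), while 1753 genes had an unadjusted p under 0.05. Libraries with the same number deviated together, and with a term for that number (the block) the fit called 1578 genes (11.3% of those tested), 822 higher (5.89%) and 756 lower (5.42%), all 230 among them. Counts given with the block below are to be read against these shares. The block takes up only what libraries with the same number share across both shRNAs. Their match was closer within an shRNA (correlations of 0.645 to 0.734) than between shRNAs (0.247 to 0.307). That closer match is left in, so p-values with the block can be too small. Leaving out a scramble library left few calls: 4 without library 1 (LAD1, PROM1, ECM1 and S100A7) and 2 without library 2 (LAD1 and ECM1). Without shLAD1 library 1 there were 50 calls and without shLAD1 library 2 there were 42. An exact permutation test of 2 against 2 libraries cannot give a two-sided p below 0.333 for any single gene.

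**Figure D1:**
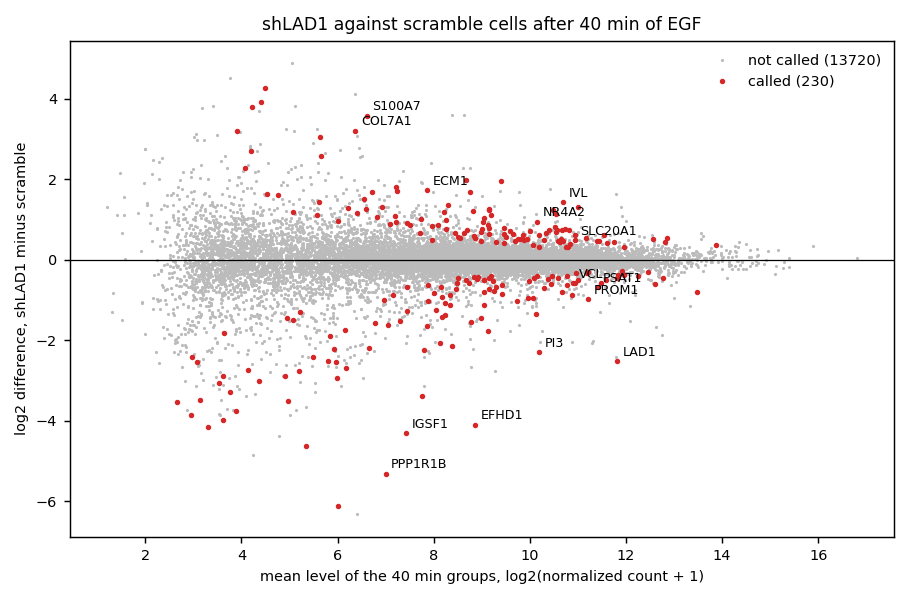
Each point is 1 of the 13950 tested genes after 40 min of EGF, with its mean level in the 40 min groups on the x axis, as log2(normalized count + 1), and its log2 difference between shLAD1 and scramble cells on the y axis. The 230 called genes (red) lie on both sides of 0 over the whole range of levels, with LAD1 at -2.52 and S100A7 at 3.58.

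The largest rise among called genes that averaged 2 or more in log2 CPM was that of S100A7, which encodes psoriasin, a calcium-binding protein of the S100 family made by keratinocytes. It had 19.04 and 10.0 normalized counts in scramble and 209 and 149.8 in shLAD1 cells. Both knockdown libraries were thus many times higher, 12.3-fold in the means (log2 difference 3.58 ± 0.35, adjusted p = 0.00591). It shares 14.2% of its 50-base words with its copy S100A7A, so reads could be split between them. IVL encodes involucrin, the scaffold on which the cornified envelope of keratinocytes is built. It went from 857 and 921 to 2064 and 2773, which is 2.72-fold (adjusted p = 0.00765). PADI1, an enzyme that turns arginine into citrulline in epidermal proteins, had 82.5 and 59.3 in scramble and 222 and 238 in shLAD1 cells, 3.24-fold higher (adjusted p = 0.00922). ECM1 encodes a secreted glycoprotein of skin matrix. Its replicates lay very close, at 103 and 109 against 349 and 363, and its log2 difference of 1.73 ± 0.12 (adjusted p = 0.00129) remained called without either scramble library.

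The small proline-rich proteins (SPRR) are cross-linked into the cornified envelope by transglutaminases, and their genes lie beside IVL on chromosome 1. SPRR2A had 16.7 and 5.01 normalized counts in scramble and 70.5 and 102 in shLAD1 cells (log2 difference 3.06 ± 0.59, adjusted p = 0.0423). It shares 21.8% of its 50-base words with SPRR2B. SPRR1B had 72.2 and 27.6 against 352 and 882, and SPRR1A 23.0 and 10.0 against 85.9 and 214. Both missed the threshold, at adjusted p = 0.114 and 0.074, and SPRR1A was called with the block (adjusted p = 0.0483). SPRR3 stood at 0.79 and 1.67 in scramble and at 11.6 and 27.2 in shLAD1 cells (adjusted p = 0.0701, and 0.00266 with the block). In all 4 genes both knockdown libraries were above both scramble libraries, but the knockdown libraries of SPRR1B, SPRR1A and SPRR3 also differed from each other by more than 2-fold.

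Over the whole list of cornified envelope and epidermal differentiation genes, 2 of 27 tested members rose (SPRR2A and IVL) and none fell. The median log2 difference was 0.45, beside 0.002 over all tested genes, and 22 members had a positive value. At least SPRR3, SPRR2D and SPRR2E would not have reached the level filter on their scramble libraries alone. Their positive values were thus favoured by the filter, and they count in the median and among the 22. SPRR3 also counts among the rises with the block. With the block 7 rose and 1 fell, KRT6B, at adjusted p = 0.00197. KRT6B, a keratin of activated epidermis, stood at 5167 and 6003 in scramble and 2516 and 4110.5 in shLAD1 cells. SPRR1A, SPRR3, PPL, KRT13 and GRHL3 were called higher with the block only. Another 8 members did not reach the level filter, among them LOR, the gene of loricrin. Fewer cells of a type and less RNA per cell cannot be told apart in these bulk libraries.

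Promoters of these genes are shown because AP-1, the dimer of FOS and JUN proteins that EGF induces, is known to bind the involucrin and SPRR promoters. The windows run from 250 bases before to 50 after the transcription start, from RefSeq on GRCh38.p14, while the deposited counts were made on hg19. The 4 SPRR genes have the largest log2 differences of the list, SPRR2A alone among them being called, IVL is its other called gene, and LAD1 is the target of the shRNA. Capitals mark the AP-1 motif TGANTCA, which reads the same on both strands, with N for any base.
SPRR1B: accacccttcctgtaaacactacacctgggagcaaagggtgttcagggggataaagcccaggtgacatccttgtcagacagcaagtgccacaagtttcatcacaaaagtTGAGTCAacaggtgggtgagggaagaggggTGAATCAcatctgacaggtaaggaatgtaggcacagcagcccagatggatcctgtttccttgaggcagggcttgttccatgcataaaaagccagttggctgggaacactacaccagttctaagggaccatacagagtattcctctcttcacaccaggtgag
SPRR3: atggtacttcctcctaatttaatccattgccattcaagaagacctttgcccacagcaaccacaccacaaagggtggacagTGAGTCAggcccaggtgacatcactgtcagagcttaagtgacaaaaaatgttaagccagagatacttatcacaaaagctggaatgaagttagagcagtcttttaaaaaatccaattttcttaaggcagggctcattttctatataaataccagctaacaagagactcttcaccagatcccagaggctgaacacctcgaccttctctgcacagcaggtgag
SPRR1A: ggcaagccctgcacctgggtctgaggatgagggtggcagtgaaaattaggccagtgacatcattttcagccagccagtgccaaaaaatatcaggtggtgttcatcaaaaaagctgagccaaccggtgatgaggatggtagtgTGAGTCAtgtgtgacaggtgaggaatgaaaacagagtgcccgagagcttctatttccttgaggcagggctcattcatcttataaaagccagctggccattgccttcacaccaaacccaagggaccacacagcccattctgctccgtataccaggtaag
SPRR2A: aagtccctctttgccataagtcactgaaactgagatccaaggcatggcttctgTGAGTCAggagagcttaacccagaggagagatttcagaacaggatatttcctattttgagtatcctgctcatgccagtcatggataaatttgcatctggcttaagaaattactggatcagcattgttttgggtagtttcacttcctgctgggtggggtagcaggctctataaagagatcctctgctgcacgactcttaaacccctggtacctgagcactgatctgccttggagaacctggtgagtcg
IVL: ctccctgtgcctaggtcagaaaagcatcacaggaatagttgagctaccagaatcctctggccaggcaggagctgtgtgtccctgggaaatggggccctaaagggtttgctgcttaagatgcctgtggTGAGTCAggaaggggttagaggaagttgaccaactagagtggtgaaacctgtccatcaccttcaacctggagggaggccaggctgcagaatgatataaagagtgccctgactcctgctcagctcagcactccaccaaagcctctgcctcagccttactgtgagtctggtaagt
LAD1: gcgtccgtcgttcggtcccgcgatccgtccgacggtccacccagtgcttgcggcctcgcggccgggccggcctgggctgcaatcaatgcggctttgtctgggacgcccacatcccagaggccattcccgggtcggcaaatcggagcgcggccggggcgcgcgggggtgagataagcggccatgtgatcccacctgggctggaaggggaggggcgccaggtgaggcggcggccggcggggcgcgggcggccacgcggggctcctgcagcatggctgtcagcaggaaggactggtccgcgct

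On the plus strand, the windows are chr1:153030953-153031252 for SPRR1B, chr1:153001499-153001798 for SPRR3, chr1:152983831-152984130 for SPRR1A and chr1:152908296-152908595 for IVL. On the minus strand they are chr1:153057463-153057762 for SPRR2A and chr1:201399275-201399574 for LAD1. The motif began at -141 and at -111 from the start in SPRR1B, at -170 in SPRR3, at -108 in SPRR1A, at -197 in SPRR2A and at -123 in IVL. The LAD1 window did not hold these letters, which says nothing about the factor. TGANTCA was present in 7.71% of all 35116 windows of this length. By gene it was present for 14.1% of the 85 genes called higher that had a window, 8.33% of the 84 called lower and 7.33% of all tested genes with one. Of the 16 tested cornified envelope genes with a window, 8 held it. A match of letters is a description and not a binding site.

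Kallikrein-related peptidases, secreted proteases that cut the links between corneocytes, lay higher in shLAD1 cells without a call. All 7 tested members had a positive log2 difference, with a median of 1.5, and none passed the test. KLK7 had 181 and 89.3 normalized counts in scramble and 501 and 783 in shLAD1 cells (log2 difference 2.29 ± 0.55, adjusted p = 0.0971). KLK5 had 3036 and 912 against 4740.1 and 5599, and its scramble libraries differed more than 3-fold from each other. With the block, KLK8 and KLK9 were called higher. Of 15 tested epithelial protease inhibitors, none rose and 1 fell, with a median of -0.15 (3 and 3 with the block). The one that fell was PI3, or elafin, an inhibitor of elastase that is itself cross-linked into the epidermal envelope, at 1648 and 2249 in scramble and 297 and 510.3 in shLAD1 cells (4.83-fold lower, adjusted p = 0.0186). PI3 thus moved opposite to SPRR2A and IVL. Among 13 tested S100 genes S100A7 alone was called, and the median was 0.08. S100A11 (adjusted p = 0.0202) and S100A16 (adjusted p = 0.0306) were called higher with the block only.

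COL7A1 encodes type VII collagen, the anchoring fibril that holds the basement membrane of skin to the dermis. Its normalized count was 13.5 and 16.7 in scramble and 128 and 169 in shLAD1 cells, a 9.84-fold rise (log2 difference 3.21 ± 0.46, adjusted p = 0.0161). It was the single called gene among 13 tested hemidesmosome and laminin-332 genes. All 13 had a positive value, with a median of 0.38, and 4 were called higher with the block. None of the 16 tested desmosome and adherens junction genes was called (median 0.11, 3 higher and 1 lower with the block).

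The other genes among the 12 largest rises are known for varied roles. MGLL, the lipase that splits monoacylglycerols, had 196 and 132 normalized counts in scramble and 699.9 and 589 in shLAD1 cells (3.93-fold, adjusted p = 0.00922). ALOX5, the 5-lipoxygenase that opens leukotriene synthesis, had 42.8 and 55.9 against 153 and 167 (3.24-fold, adjusted p = 0.012). In both genes the knockdown libraries were well above the scramble libraries. PSCA, a surface antigen held by a lipid anchor, had 228 and 331 against 1183 and 964 (3.84-fold, adjusted p = 0.0113). An exon of PSCA overlaps JRK on the opposite strand. MUC4, a membrane mucin that binds ERBB2, had 73.8 and 54.3 against 171 and 290.2 (3.6-fold, adjusted p = 0.0294). TNS4, a tensin of focal adhesions that EGF signalling induces in epithelial cells, had 197 and 204 against 523 and 804 (3.31-fold, adjusted p = 0.00751). NDRG4 rose 2.9-fold, from 55.5 and 40.1 to 119.7 and 157 (adjusted p = 0.018).

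**Figure D2:**
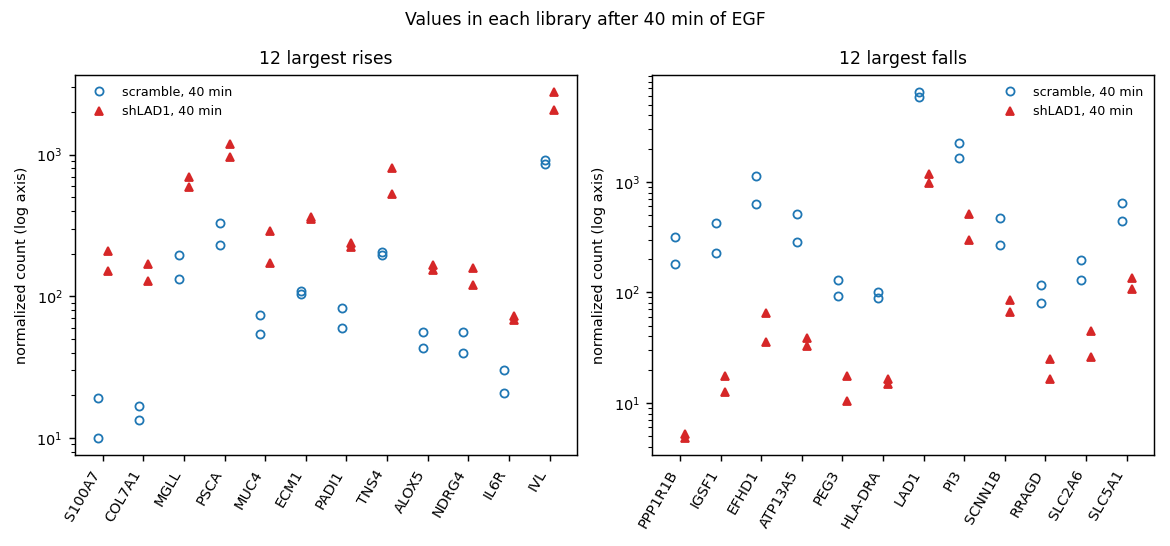
Normalized counts (log axis) in each library after 40 min of EGF for the 12 largest rises (left) and the 12 largest falls (right) among called genes whose log2 CPM (reads scaled to library size) averaged 2 or more. Circles are the 2 scramble libraries and triangles the 2 shLAD1 libraries, and the groups do not overlap in any of the 24 genes, a condition of their choice.

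Among called genes that averaged 2 or more in log2 CPM, the largest falls, given in this paragraph, left very little transcript. PPP1R1B encodes DARPP-32, a regulated inhibitor of protein phosphatase 1. It had 179 and 319 normalized counts in scramble and 4.83 and 5.24 in shLAD1 cells, 49.5-fold lower (log2 difference -5.32 ± 0.80, adjusted p = 0.0214). IGSF1, a membrane glycoprotein of the immunoglobulin superfamily, had 229 and 425 against 17.4 and 12.6. EFHD1, a calcium-binding protein of mitochondria, had 1127 and 625 against 35.7 and 65.0. The fall was 21.8-fold in IGSF1 (adjusted p = 0.0415) and 17.4-fold in EFHD1 (adjusted p = 0.0173), although the scramble libraries themselves differed by 1.8-fold or more in both genes. ATP13A5, a cation-transporting ATPase, fell 11.1-fold, from 508 and 285 to 32.8 and 38.8 (adjusted p = 0.0216). PEG3, an imprinted gene for a zinc finger protein, fell 7.98-fold, from 92.8 and 129 to 17.4 and 10.5 (adjusted p = 0.0178). PEG3 shares 13.4% of its 50-base words with the overlapping gene ZIM2.

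HLA-DRA, the alpha chain of the antigen-presenting protein HLA-DR, had 99.9 and 88.5 normalized counts in scramble and 16.4 and 14.7 in shLAD1 cells. Its replicates were tight and its fall was 6.06-fold (log2 difference -2.52 ± 0.24, adjusted p = 0.00546). Besides LAD1 and PI3, the rest of the 12 largest falls were 3 genes of membrane transport and 1 of nutrient signalling. SLC5A1, the sodium-glucose cotransporter SGLT1, had 439 and 640.4 against 107 and 135 (4.45-fold lower, adjusted p = 0.0362). SLC2A6, a glucose transporter of the GLUT family, had 197 and 130.3 against 44.4 and 26.2 (4.63-fold lower, adjusted p = 0.018). SCNN1B, the beta subunit of the epithelial sodium channel, had 474 and 267 against 85.0 and 66.0 (4.91-fold lower, adjusted p = 0.0481). RRAGD, a small GTPase that brings amino acid signals to the kinase complex mTORC1, had 80.9 and 117 against 16.4 and 25.1 (4.76-fold lower, adjusted p = 0.0307).

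FOS and EGR1, the best known immediate early genes of EGF, were not called. FOS had 13615 and 13149 normalized counts in scramble and 15049.6 and 16135 in shLAD1 cells after 40 min, while the 4 starved libraries held 269 to 349. The EGF-induced level of FOS was thus high in all 4 libraries, and its log2 difference was 0.22 ± 0.12 (adjusted p = 0.394). EGR1 had 30475 and 28487 against 31850.5 and 37098 (log2 difference 0.22 ± 0.27, adjusted p = 0.742). The log2 differences of JUNB (0.32), EGR2 (0.39), FOSB (0.06) and IER3 (-0.32) also missed the threshold, with standard errors of 0.17 to 0.38.

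Of 30 tested immediate early genes 2 rose and none fell, with a median log2 difference of 0.23 and 22 positive values. The number was 4 with the block, which added BTG2 and HES1. NR4A2, an orphan nuclear receptor, had 847 and 704 normalized counts in scramble and 1637 and 1357 in shLAD1 cells (1.93-fold, adjusted p = 0.0383). The NR4A2 call was lost with libraries of a cell population correlated (adjusted p = 0.0861 with an estimated correlation). Here a cell population means the libraries with the same shRNA and number, which the labels do not describe further. KLF4, a transcription factor of epithelial differentiation, had 541 and 564 against 894 and 839 (1.57-fold, adjusted p = 0.018). In starved cells KLF4 already differed by 0.51 on the log2 scale (adjusted p = 0.039). NR4A2 differed there by 0.68 (adjusted p = 0.106 in limma), with 261 and 318 in scramble and 440 and 482 in shLAD1 cells.

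SIK1 and SLC20A1 were chosen by the smallest p of the change in the knockdown difference between times. SIK1, a salt-inducible kinase whose gene is switched on early by many stimuli, had 385 and 326 normalized counts in scramble and 729.8 and 634 in shLAD1 cells after 40 min. Without EGF it had 188 and 139.8 against 166 and 154, so the kinds of cell overlapped there. Its log2 difference was 0.94 ± 0.16 at 40 min (adjusted p = 0.0294), -0.02 at 0 min and -0.17 at 240 min. SLC20A1, a sodium-dependent phosphate transporter, had 1632 and 1641 against 2293 and 2290.5, a small rise of 1.4-fold with very tight replicates (adjusted p = 0.0101). Its log2 difference was 0.05 at 0 min and 0.14 at 240 min. The difference at 40 min less that at 0 min was 0.96 ± 0.23 for SIK1 and 0.43 ± 0.09 for SLC20A1, with unadjusted p of 0.0022 and 0.00072 in limma and an adjusted p of 1 for both. UBALD2 (-0.52 ± 0.11, adjusted p = 0.0564, and 0.0114 with the block) and the long noncoding RNA LINC01578 (-0.32, adjusted p = 0.156) were chosen the same way and lay lower in both shLAD1 libraries.

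**Figure D3:**
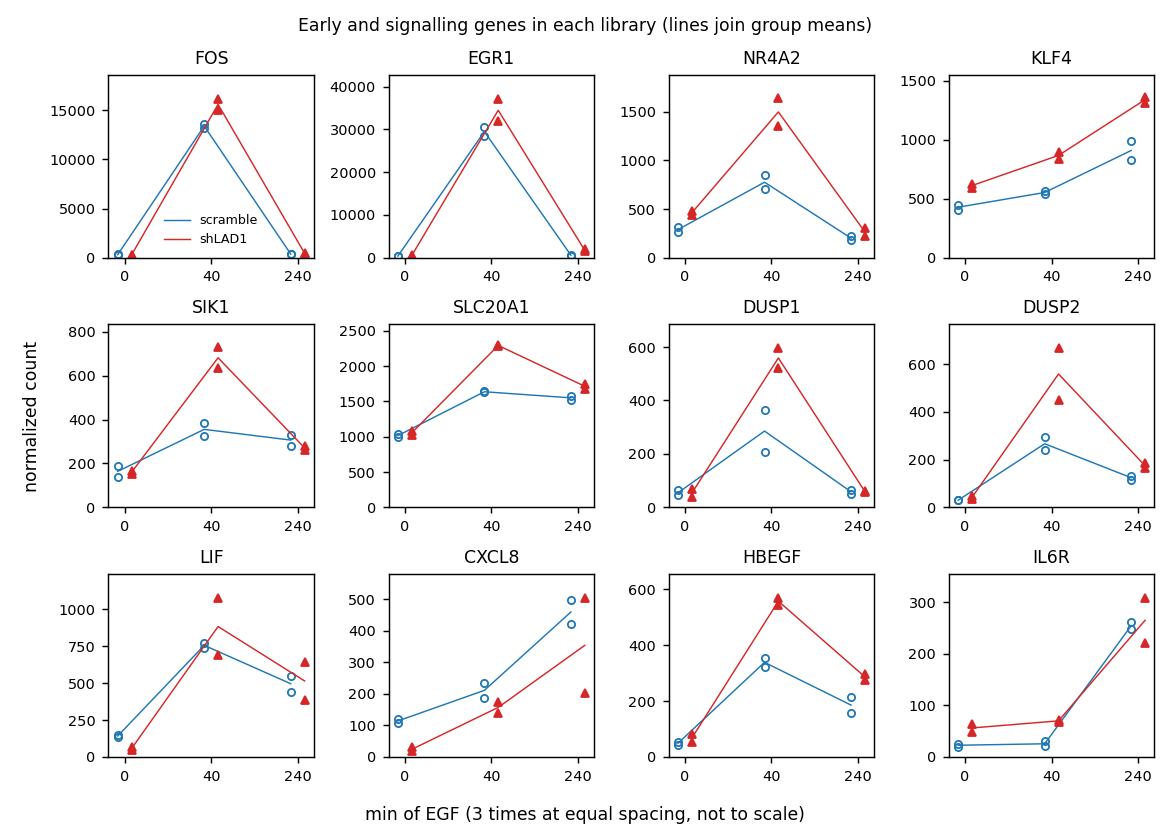
Normalized counts of 12 early and signalling genes in each library at 0, 40 and 240 min of EGF, with circles for scramble, triangles for shLAD1 and lines through the group means. FOS and EGR1 peak at 40 min at close levels in both kinds of cell, while SIK1 and NR4A2 are higher in both shLAD1 libraries at 40 min. NR4A2, unlike SIK1, is also higher in both shLAD1 libraries at 0 min.

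Feedback inhibitors of EGFR and ERK signalling numbered 1 rise and no fall among 24 tested, with a median log2 difference of 0.18. CBLB, a ubiquitin ligase that sends activated EGFR to degradation, had 508 and 520.2 normalized counts in scramble and 974 and 809 in shLAD1 cells (1.73-fold, adjusted p = 0.0257). The dual-specificity phosphatases lay higher without passing this test. DUSP1 had 364 and 207 against 596 and 523 (log2 difference 1.02 ± 0.33, adjusted p = 0.168). DUSP2 had 294 and 239 against 666 and 452 (1.05 ± 0.22, adjusted p = 0.055). The groups did not overlap in either gene. With the block 6 members were called higher, CBLB, DUSP1, DUSP2, DUSP4, DUSP8 and DUSP10, and none lower. With libraries of a cell population correlated, CBLB was called (adjusted p = 0.0105 in limma) and DUSP1 was not (adjusted p = 0.109). DUSP1 had a log2 difference of -0.08 in starved cells. CBLB was called there too (0.68, adjusted p = 0.0392 in limma) and at 240 min (0.82, adjusted p = 0.0295). From 0 to 40 min of EGF, CBLB changed by 0.11 on the log2 scale in scramble and 0.21 in shLAD1 cells.

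None of the 10 tested EGF family ligands and ERBB receptors passed the test, with a median log2 difference of 0.22. EGFR itself had 2750.1 and 3126 normalized counts in scramble and 2189.5 and 3058 in shLAD1 cells, and the groups overlapped (-0.18 ± 0.20, adjusted p = 0.705). HBEGF, a membrane-tethered EGFR ligand, had 323 and 354 against 569.6 and 545 (0.72 ± 0.21, adjusted p = 0.136). The ligands AREG (1.17, adjusted p = 0.209) and EREG (0.87, adjusted p = 0.284) were also above the scramble range in both shLAD1 libraries. With the block HBEGF (adjusted p = 0.0349) and EPGN (adjusted p = 0.000187) were called higher. HBEGF was not called with libraries of a cell population correlated (adjusted p = 0.166 in limma).

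Cytokine, chemokine and NF-kB genes had 1 rise and no fall among 24 tested, and a median log2 difference of -0.34. The rise was IL6R, the interleukin 6 receptor, at 30.1 and 20.9 normalized counts in scramble and 67.6 and 72.3 in shLAD1 cells (2.74-fold, adjusted p = 0.0311). With the block 1 rose and 6 fell. These were the chemokines CCL2 and CXCL5, the NF-kB regulators NFKBIA, RELB and BIRC3, and the adhesion receptor ICAM1. RELB had 214 and 268 against 112 and 140.4 (adjusted p = 0.132, and 0.00724 with the block). CCL2 had 57.9 and 13.4 against no read in either shLAD1 library. CXCL8, the chemokine interleukin 8, had 236 and 186 against 140.0 and 174, which are close (-0.42 ± 0.40, adjusted p = 0.659). In starved cells it had 119 and 109 against 17.5 and 30.5, a log2 difference of -2.25 (adjusted p = 0.035). LIF, a cytokine of the interleukin 6 family, had 739 and 773 against 690.3 and 1077 at 40 min (0.19 ± 0.28, adjusted p = 0.791). It had 135 and 149 against 47.2 and 66.2 in starved cells. The difference at 40 min less that at 0 min was 1.83 ± 0.56 for CXCL8 and 1.52 ± 0.40 for LIF, with unadjusted p of 0.011 and 0.0045 in limma and an adjusted p of 1.

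FLNA encodes filamin A, which cross-links actin, and it was not called. It had 28480.0 and 20340.4 normalized counts in scramble and 26002 and 24879.6 in shLAD1 cells (log2 difference 0.08 ± 0.19, adjusted p = 0.875). The actin genes ACTB (0.04) and ACTG1 (-0.01) had values of the same small size, at adjusted p of 0.877 and 0.989. VCL, or vinculin, which ties integrin adhesions to actin, had 2390.0 and 2209 against 1517 and 1557. It was the single called gene among 39 tested filamin and actin cytoskeleton genes (1.5-fold lower, adjusted p = 0.0318, list median 0.03, 3 higher and 2 lower with the block). VCL was also the single call among 15 tested targets of SRF, the factor that reads actin state (median 0.04, none higher and 2 lower with the block). None of 14 integrin subunits (median 0.19) or 22 matrix proteases, inhibitors and plasminogen activation genes (median 0.04) passed the test. With the block ITGA5, ITGB1 and ITGB6 were called higher, and 2 of the protease list were higher and 3 lower.

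None of 29 mitosis genes (median log2 difference -0.10), 30 G1/S and DNA replication genes (-0.01), 24 cholesterol synthesis genes (-0.13) or 26 glycolysis and hypoxia genes (-0.05) was called. With the block the numbers were none higher and 3 lower for mitosis, 1 and 1 for G1/S, none and 6 for cholesterol synthesis, and 1 and 4 for glycolysis. Among 20 ATF4 and stress genes, 1 fell and none rose (median 0.007, 1 and 1 with the block). It was PSAT1, an enzyme of serine synthesis, at 3318 and 3378 normalized counts in scramble and 2176 and 2009 in shLAD1 cells (log2 difference -0.68 ± 0.07, adjusted p = 0.00751). None of 33 interferon-stimulated genes (median 0.21, 7 higher and 1 lower with the block) or 15 Notch pathway genes (-0.15, 2 and 4 with the block) passed the test. Of 15 tested mesenchymal transition genes none was called, with a median of -0.50 (none higher and 2 lower with the block).

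**Figure D4:**
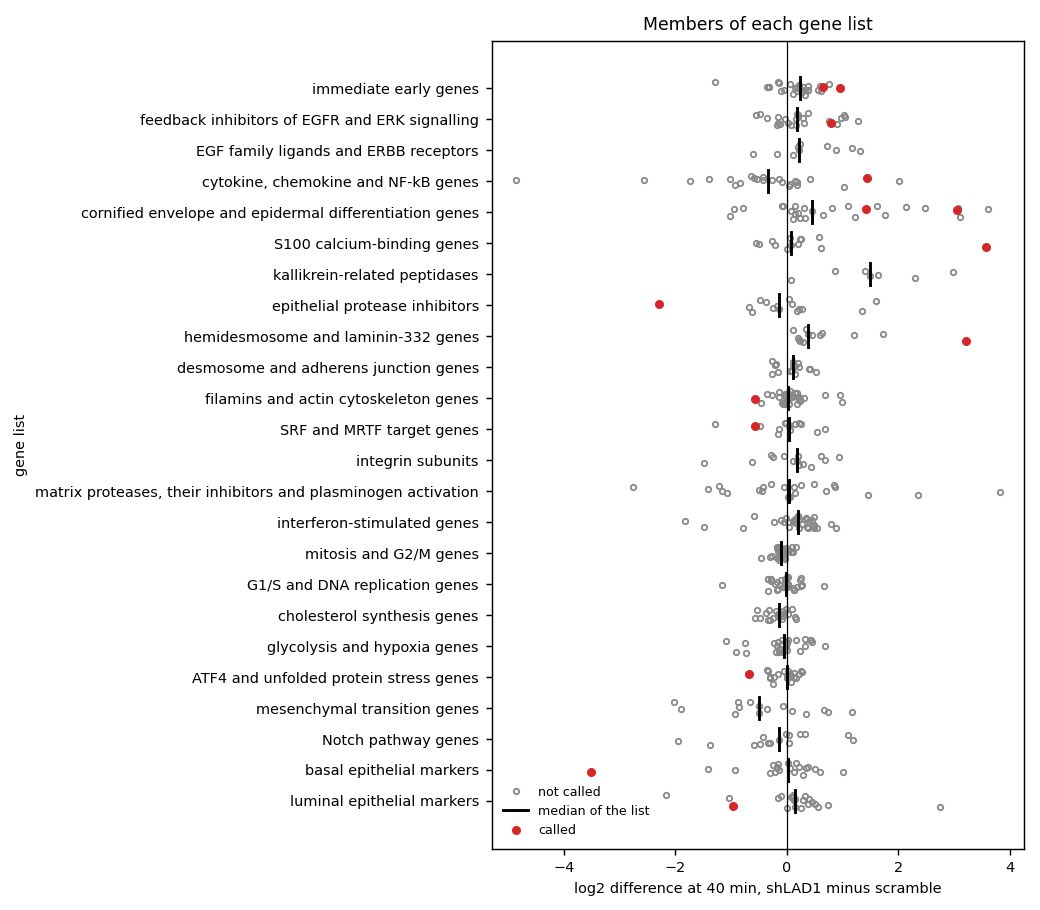
Each row is a gene list and each point a tested member, placed by its log2 difference between shLAD1 and scramble cells after 40 min of EGF, with called genes in red and the median of the list as a bar. The largest median is 1.5 for the 7 kallikrein-related peptidases, none of which is called, and the cornified envelope genes spread from -1.01 to 3.61.

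The summed level of the mesenchymal list was 17043 and 8228 in scramble and 7984 and 9886 in shLAD1 cells, so scramble library 1 stood above the other 3 libraries. Many markers of other cell types were near 0, but not all. Among 12 fibroblast markers DCN and POSTN were at 0 in all 12 libraries, and 3 passed the level filter. COL1A1 rose 2.42-fold, from 374 and 287 to 704 and 895 (adjusted p = 0.0113), while its partner chain COL1A2 had no read in the 4 libraries. PDGFRA had 78.5 and 66.0 against 21.2 and 18.9 (log2 difference -1.80, adjusted p = 0.0987, and 0.0277 with the block), and FBLN1 had a log2 difference of -0.11. The summed fibroblast list was 3101 and 2976 against 3601 and 2983. Among 12 immune markers CD3D, CD2 and MS4A1 were at 0 in all 12 libraries, and PTPRC stood at 0 to 0.97 at 40 min. CD14 stood at 547 to 1117. CD68, a lysosomal protein, was called (797 and 741 against 1081 and 1479, adjusted p = 0.0407), and the summed immune list was 1709 and 1867 against 1678 and 2659. None of 5 tested endothelial markers passed the test, and 3 of the 5 had a positive log2 difference. KDR had no read in the 4 libraries, while ENG stood at 425 to 571 and ESAM at 143 to 347. CDH5 had 5.55 and 4.17 against 19.3 and 28.3 (adjusted p = 0.0564 in limma, and 0.0126 with the block). The summed endothelial list was 872 and 834 against 695 and 805.

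The differences at 40 min were set beside those of the same cells without EGF (217 called, 1.56%) and after 240 min (133 called, 0.953%). These comparisons share no library with that at 40 min. Libraries with the same shRNA and number deviated together across the times, so the comparisons are not independent. Of the 230 genes called at 40 min, 229 had the same sign at 0 min and 229 at 240 min. At 0 min 163 were also called, which is 70.9% of the 40 min calls and 75.1% of the 0 min calls. At 240 min 103 were also called, 44.8% and 77.4% of the respective calls. Called at all 3 times were 90 genes, and 54 at 40 min only. The log2 difference at 0 min was 0.96 times that at 40 min in the median called gene, and 0.85 times at 240 min.

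No gene passed the test for a change of the knockdown difference between 40 and 0 min (limma, 99 genes at an unadjusted p under 0.05), and edgeR and DESeq2 also called 0. The same held between 40 and 240 min, with 191 genes at an unadjusted p under 0.05. Some of the 12 largest rises were smaller at 240 min. COL7A1 had a log2 difference of 3.21 at 40 min and 2.10 at 240 min, and TNS4 1.69 and 0.96. IL6R went from 1.44 at 40 min to 0.04 at 240 min, where it stood at 247 and 261 normalized counts in scramble and 221 and 308 in shLAD1 cells (unadjusted p = 0.0035, adjusted p = 1). LAD1 itself was at -2.66, -2.52 and -1.996 at 0, 40 and 240 min.

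**Figure D5:**
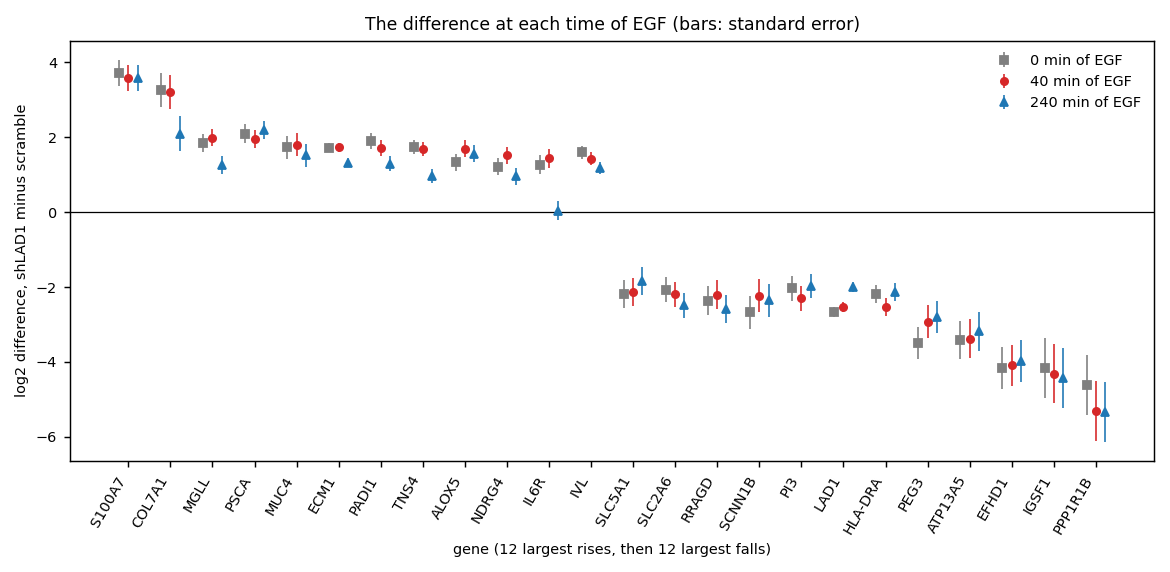
The log2 difference between shLAD1 and scramble cells, with its standard error, at 0 (squares), 40 (circles) and 240 min (triangles) of EGF for the 12 largest rises and 12 largest falls at 40 min. The 3 times lie close for most genes, and IL6R is the gene whose 240 min value, 0.04, sits near 0.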

How the data were processed

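The authors' table, as deposited, lists 26365 gene symbols. Reads were handled with STAR, DESeq2 and the build hg19, per the submitters' processing notes. No tool version, counter, annotation or strand use is given in the sources used here. The deposited signal columns hold read counts divided by a size factor per library, as tested on the values: whole reads were recovered to within 0.001. The deposited log2 fold change, score and p-value columns of the authors were not used.

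The test was limma-trend (limma 3.58.1, R 4.3.3, robust) on log2(normalized count + 1), a scale that understates changes of low genes, with a mean per group over 12 libraries. Genes needed 10 normalized counts in at least 2 libraries. Calls had a Benjamini-Hochberg adjusted p under 0.05. edgeR 4.0.16, DESeq2 1.42.0 and limma-voom on recovered reads were alternatives, as were other scalings, filters and pseudocounts. The limma-trend, edgeR and block fits were tested on simulated data in which all libraries were independent. That test does not bear on error rates where libraries deviate together, as they did here.

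Named genes were the 12 largest rises and 12 largest falls among called genes that averaged 2 or more in log2 CPM and whose groups do not overlap, up to 4 called members per list, the 3 smallest p of each change between times, and a set of genes whatever their p, of which 1 is not reported here. Other members of the 27 lists are named from the counts they belong to. The genes, lists and the comparison were chosen with earlier results of these data known.

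Libraries with the same number deviated from their group means together. The correlation was 0.645 to 0.734 between groups that share an shRNA (6 pairs) and 0.247 to 0.307 otherwise (9 pairs) (0.302 between the groups compared). The numbers in the labels therefore pair the libraries, and a fit with that number as replicate block is given where it changes a call. Replicates differed by more than counting noise, with a chi-square per degree of freedom of 8.59 to 21.3. Shared 50-base words and exon overlaps came from GENCODE v29 transcripts, promoters from RefSeq.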

Additional observations from a re-analysis of the deposited data

How the results depend on the processing

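LAD1 was called under every alternative, with a log2 difference from -2.66 to -2.38, and none of the 35 called named genes changed sign. Among named genes that were not called, LIF, FLNA, FOSB, ACTB, ACTG1, EGFR and IER3 changed sign with 1 library or another left out, and ACTG1 also with DESeq2. Of the 230 calls at 40 min, other scalings, pseudocounts and filters, edgeR and limma-voom gave 211 to 245. DESeq2 called 538 genes, and a fit with libraries of a cell population correlated (estimated at 0.603) called 455. The 4 libraries of 40 min alone gave 1, which has fewer residual degrees of freedom. Leaving out a library gave 2 to 50 calls. The cause of the other shifts was not tested. With the paired fit, in which the library number is a replicate block, 1578 genes were called, LAD1 at an adjusted p of 4.1e-05, and all 35 named called genes remained. Of those 35 genes, 29 were called with limma-voom, 34 with correlated populations (all but NR4A2) and 1 to 12 with a library left out. Counts of changes between times were 0 under every alternative. With 12915812 to 16721013 reads per library at 40 min, a gene at 1 normalized count rests on about 1 read, so low genes such as SPRR3 carry counting error.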

Other observations

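The gene groups and genes named here were chosen after their values were seen, and are given as values only. Most tested genes of MHC class II, which present antigen to CD4+ T cells, lay lower in shLAD1 cells after 40 min of EGF. Of 11 tested, 4 fell (36.4%, against 0.839% of all tested genes), none rose, and the median log2 difference was -2.29. HLA-DPA1, HLA-DPB1, HLA-DQB1 and HLA-DRB5 would not have reached the level filter on their shLAD1 libraries alone. Falls were thus favoured in advance for these genes, which include called ones and the median gene, HLA-DRB5. The share and the median are inflated to that extent. HLA-DMA (507 and 487 against 566 and 461) and HLA-DOB had positive values, and the groups of HLA-DMB overlapped. HLA-DRB1 had 88.8 and 61.8 normalized counts in scramble and 13.5 and 12.6 in shLAD1 cells, and HLA-DPB1 had 10.3 and 10.9 against no read. HLA-DPA1 was the fourth, with HLA-DRA. Their regulator CIITA had a log2 difference of -0.96 (adjusted p = 0.310 in limma) and the invariant chain CD74 -0.65 (adjusted p = 0.387).

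Zinc finger genes of chromosome 19 leaned the other way. Of 207 tested 10 rose (4.83%) and none fell, against 0.81% of all tested genes called higher and 1.65% called. Positive values numbered 166 and the median was 0.32, beside 0.002 over all tested genes. In the run of 25 tested neighbours from ZNF548 to ZNF256, 5 rose (20%): ZNF548, ZNF549, ZNF211, ZNF551 and ZNF256. In this run 24 had a positive value and the median was 0.69. Both ends of the run are called genes, so its share depends on where it was cut. The run from S100A10 to S100A1 on chromosome 1 holds IVL and the SPRR genes. Of its 24 tested genes 4 rose (16.7%, against 0.81% of all tested genes) and none fell. They were IVL, SPRR2A, PGLYRP3 and S100A7. PGLYRP3, like SPRR3, SPRR2D and SPRR2E, would not have reached the level filter on its scramble libraries alone.

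IL33, an alarmin of epithelial nuclei, had 157 and 94.4 in scramble and 0 and 2.10 in shLAD1 cells (adjusted p = 0.00751). BCL2, an inhibitor of apoptosis, had 105 and 106 against 14.5 and 21.0 (adjusted p = 0.00765). TXNIP, an inhibitor of thioredoxin and glucose uptake, had 992 and 889 against 1993 and 2136 (adjusted p = 0.00765). AQP3, the glycerol channel of keratinocytes, had 1196 and 1119 against 2345 and 3501 (adjusted p = 0.0126). THBS1, a matrix glycoprotein, was high in library 1 of both kinds of cell, at 4674 and 458 in scramble and 1294 and 824 in shLAD1 cells.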
